A study of Mus musculus with 4 samples.

Results

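Erythroid barcodes rich in globin are described here: single-cell barcodes of mouse embryonic ventricles in which the 7 globin genes Hba-a1, Hba-a2, Hba-x, Hbb-bs, Hbb-bt, Hbb-y and Hbb-bh1 made up at least 5% of all unique molecular identifiers (UMIs, counted RNA molecules). Barcodes also had to hold at least 200 genes and at most 20% mitochondrial UMIs. Of 45551 deposited barcodes, 42876 met those limits on genes and mitochondrial UMIs, and 931 of these (2.17%) were rich in globin. They were selected on globin UMIs, so their globin level is a description and was not tested. The authors removed cells with over 2% hemoglobin counts from their own work, and 978 barcodes within the same limits lay above 2%.

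The study asked how Ets1 in the endothelium affects the growth of heart muscle, and sequenced ventricular cells of C57BL/6 embryos at embryonic day 14.5 with the Chromium 3′ v3.1 chemistry. The 2 control libraries (control replicates 1 and 2) carried Tie2Cre with 1 floxed Ets1 allele (Tie2Cre; Ets1 fl/+), and the 2 knockout libraries (eKO replicates 1 and 2, for endothelial knockout) carried Tie2Cre with both alleles floxed (Tie2Cre; Ets1 fl/fl). Both groups therefore carry the Cre and at least 1 floxed allele. Each library pooled the ventricles of 3 embryos of undetermined sex, no treatment was given, and batch 1 is given for all 4. Tie2Cre acts in the endothelium and is also active in blood lineages, so red cells of both groups may descend from cells in which the Cre was active.

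In total 12641 barcodes and 124140739 UMIs were deposited for control replicate 1, and 7949 barcodes and 76931208 UMIs for control replicate 2. For eKO replicate 1 these numbers were 10010 and 95131419, and for eKO replicate 2 they were 14951 and 102872196. Values of a group are given below as replicate 1 and then replicate 2. Since barcodes of a library are not independent samples, groups were compared over libraries, with n = 2 in each group.

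Mouse embryos make red cells in successive waves. Primitive red cells arise in the yolk sac, enter the circulation with a nucleus and carry embryonic globins, the beta-type chains of Hbb-y and Hbb-bh1 and the alpha-type chain of Hba-x. Definitive red cells come from the fetal liver at this age and carry the adult beta-type chains of Hbb-bs and Hbb-bt, while Hba-a1 and Hba-a2 give the adult alpha-type chain in both waves.

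The erythroid label was checked against a fixed list of markers. Of 12 erythroid markers on the list, 3 of them globins that the rule used, 11 are in the deposited gene table. All 11 were detected in the globin-rich barcodes of every library, but also in its other barcodes. Detection in a library as a whole therefore does not set the 2 kinds apart, and shares of barcodes are given instead. Alas2, the first enzyme of haem synthesis in red cells, had a UMI in 86.2% and 85.2% of globin-rich barcodes of the controls and in 88.3% and 80.9% of those of eKO. In the other barcodes within the limits, these shares were 0.587% and 0.877% for the controls and 0.868% and 0.439% for eKO. Slc4a1, the anion exchanger band 3 of the red cell membrane, had a UMI in 40.4% and 58.3% of globin-rich barcodes of the controls and in 43.7% and 49.7% of those of eKO, against at most 0.0863% of the other barcodes of any library. Both markers were common in the globin-rich barcodes of all 4 libraries and rare outside them. The transcription factors Klf1 and Gata1, which drive erythroid genes, were sparse: Klf1 had a UMI in 2.67%, 5.56%, 6.31% and 5.36% of globin-rich barcodes and Gata1 in 1.78%, 7.41%, 2.91% and 2.55%, with the libraries in the same order.

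Median depth was lower in globin-rich than in other barcodes of both controls, narrowly in control replicate 1, and of eKO replicate 1. It was higher in those of eKO replicate 2. The median globin-rich barcode held 9244 and 6975 UMIs in the controls and 6286.5 and 9225.5 in eKO, and the median other barcode 9369 and 8935.5 in the controls and 8690 and 5841 in eKO. Globin-rich barcodes held far fewer genes, with medians of 414 and 362 in the controls and 388.5 and 863.5 in eKO, against medians between 2391 and 3284 in the other barcodes. Median mitochondrial shares were 0.666% and 0.510% in the controls and 0.773% and 0.891% in eKO, below the 3.51% to 4.39% of the other barcodes.

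eKO replicate 2 stood apart from the other 3 libraries. Its median globin-rich barcode gave 65.3% of UMIs to globins, while those of control replicates 1 and 2 and eKO replicate 1 gave 89.0%, 87.1% and 86.4%. The median of 2137.5 non-globin UMIs per barcode in this library compares with 972, 827 and 851 in the others, and the median share of ribosomal protein UMIs was 5.71% against 1.73%, 2.32% and 2.58%. Several results that rest on this library are therefore also given without it. Between 19 and 47 barcode sequences were shared by a pair of libraries, no barcode was globin-rich in more than 1 library, and 8 globin-rich barcodes occurred under the same sequence in another library.

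Just inside the globin limit, the lowest globin-rich barcode gave 5.82% and 5.71% of its UMIs to globins in the controls and 6.16% and 5.01% in eKO, and just outside, the highest remaining barcode gave 4.64% and 3.76% in the controls and 3.15% and 4.97% in eKO. Barcodes between 5% and 6% globin numbered 1 and 1 in the controls and 0 and 16 in eKO, and those between 4% and 5% numbered 2 and 0 in the controls and 0 and 12 in eKO. The limit thus ran through a populated range in eKO replicate 2 and through a nearly empty one in the other 3 libraries.

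Of barcodes within the limits, 225 of 11638 were globin-rich in control replicate 1 (1.93%, exact 95% confidence interval 1.69% to 2.20%) and 108 of 7402 in control replicate 2 (1.46%, 1.20% to 1.76%). In eKO replicate 1 they were 206 of 9540 (2.16%, 1.88% to 2.47%) and in eKO replicate 2 392 of 14296 (2.74%, 2.48% to 3.02%). Both eKO libraries were above both controls. The intervals of control replicate 1 and eKO replicate 1 overlap, but all of them cover counting error within a library only. They do not cover the spread between libraries. The means were 1.70% and 2.45%, a difference of 0.754 percentage points with a two-sided exact permutation p of 0.333, the smallest p that 2 libraries against 2 can give. Without eKO replicate 2 the difference was 0.463 points, its lowest value over the libraries left out. When at least 80% globin was required, a limit chosen after seeing the data, the shares were 1.40% and 1.00% in the controls and 1.51% and 1.18% in eKO, and the groups overlapped.

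The globin share of a barcode was then split into 4 ranges to see what each holds. At least 80% globin was reached by 72.4% and 68.5% of globin-rich barcodes in the controls and by 69.9% and 43.1% in eKO. The range from 5% to 20% globin held 16 and 5 barcodes in the controls and 5 and 86 in eKO. eKO replicate 2 therefore had many more barcodes of low globin share than the other 3 libraries. The median barcode from 5% to 20% globin held 4320 and 2608 genes in the controls and 3990 and 3960.5 in eKO, and that with at least 80% globin held 335 and 308 in the controls and 325 and 357 in eKO. Against the median of the other barcodes (3271 and 3284 in the controls and 3087 and 2391 in eKO), the range from 5% to 20% held more genes in 3 libraries and fewer in control replicate 2.

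Markers of other cells differed between these ranges. Levels here and below are CPM, that is, UMIs scaled to the non-globin UMIs of the same barcodes. All 10 of 10 cardiomyocyte markers were detected, with Actc1 (cardiac actin) the most abundant in the globin-rich barcodes, and the list summed to 11870 and 19188 from 5% to 20% globin in the controls and 37329 and 39623 in eKO. At 80% globin and above it summed to 6051 and 3426 in the controls and 4679 and 5598 in eKO. The other barcodes held 32343 and 26809 in the controls and 32016 and 32036 in eKO, so the barcodes of low globin share in eKO were above the other barcodes and those of the controls below them. The fall with globin share was not steady, since control replicate 1 held 26342 from 20% to 50% globin. The 8 endothelial markers summed to 2663 and 2270 from 5% to 20% globin in the controls and 538 and 601 in eKO, against 743 and 774 in the other barcodes of the controls and 709 and 902 in those of eKO. Alas2 ran the other way, from 157 and 153 at 5% to 20% globin in the controls and 313 and 62.7 in eKO to 5385 and 5976 at 80% and above in the controls and 5315 and 3836 in eKO. Whether barcodes of low globin share hold 2 cells or a cell with free globin RNA was not tested.

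**Figure D1:**
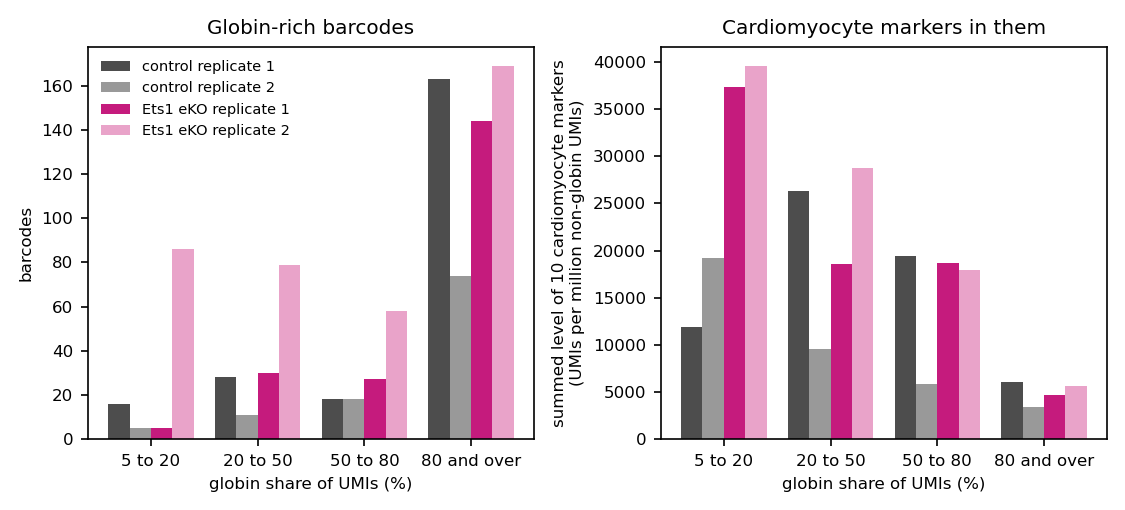
Globin-rich barcodes of each of the 4 libraries by the share of their UMIs that is globin (left), and the summed level of 10 cardiomyocyte markers in them (right). eKO replicate 2 held 43.1% of its globin-rich barcodes at 80% globin and above, and the other 3 libraries between 68.5% and 72.4%.

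The beta-type genes lie in a cluster on the minus strand of chromosome 7 of GRCm38, with Hbb-y (ENSMUSG00000052187) from 103851749 to 103853216, Hbb-bh1 (ENSMUSG00000052217) from 103841637 to 103843164, Hbb-bs (ENSMUSG00000052305) from 103826534 to 103828096 and Hbb-bt (ENSMUSG00000073940) from 103812524 to 103813996. The alpha-type genes lie on the plus strand of chromosome 11, with Hba-x (ENSMUSG00000055609) from 32276400 to 32278116, Hba-a1 (ENSMUSG00000069919) from 32283511 to 32284465 and Hba-a2 (ENSMUSG00000069917) from 32296489 to 32297298. The promoter table used here, from RefSeq (GRCm38.p6), has entries for 6 of the 7 genes, all but Hbb-bh1. The 250 bases before each RefSeq start were searched on both strands. The letters were CACCC for the CACC box, which Klf1-type factors bind in globin promoters, CCAAT for the box of that name, TATAA for the TATA box and GATAA for the motif that Gata factors bind. Over 32851 promoters of that length, 52.0% held the CACC box letters, 33.8% those of the CCAAT box, 22.8% those of the TATA box and 22.6% those of the Gata motif. All 6 globin windows held the CACC box and Gata motif letters, all but Hba-x held those of the CCAAT box, and all but Hbb-y held those of the TATA box. The windows of Hba-a1 and Hba-a2 were identical over 247 of 247 aligned bases.

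The stretches upstream of every annotated exon are shown for the embryonic Hbb-y and the definitive Hbb-bt, with matches to the searched letters in capitals. Hbb-bt was taken over Hbb-bs because its stretch is longer. The first is chr7:103853217-103853457 on the minus strand, 241 bases ending 10 bases before the RefSeq start, and the second is chr7:103813997-103814173 on the minus strand, 177 bases ending 74 bases before it. In Hbb-y the capitals mark, in order, the Gata motif on the other strand, the CACC box and the CCAAT box. In Hbb-bt they mark the TATA box letters on the other strand, the Gata motif, the CACC box 3 times and the CCAAT box on the other strand. The searched window of Hbb-bt also held matches on the printed strand that the stretch does not show in full. These are the TATA box letters from -28 to -24 and the CCAAT box from -75 to -71, counted from the RefSeq start.
Hbb-y: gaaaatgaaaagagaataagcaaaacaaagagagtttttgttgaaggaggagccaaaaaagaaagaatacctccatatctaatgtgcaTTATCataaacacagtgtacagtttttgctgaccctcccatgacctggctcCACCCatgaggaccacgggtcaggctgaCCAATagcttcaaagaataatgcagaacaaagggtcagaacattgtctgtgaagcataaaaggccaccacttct
Hbb-bt: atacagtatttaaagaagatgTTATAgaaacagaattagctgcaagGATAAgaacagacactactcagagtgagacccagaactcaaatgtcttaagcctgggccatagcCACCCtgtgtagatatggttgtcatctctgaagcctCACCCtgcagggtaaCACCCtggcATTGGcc

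Of all globin UMIs in the globin-rich barcodes, the embryonic beta-type Hbb-y made up 10.5% and 16.2% in the controls and 14.4% and 23.8% in eKO. Hbb-bh1, the beta-type gene of the earliest primitive cells, made up 0.0359% and 0.0566% in the controls and 0.0514% and 0.0929% in eKO. The embryonic alpha-type Hba-x made up 1.52% and 2.22% in the controls and 2.34% and 3.401% in eKO. For all 3 embryonic globins, control replicate 1 was lowest and eKO replicate 2 highest, and for Hbb-y and Hbb-bh1 the groups overlapped. Hba-x was higher in both eKO libraries than in both controls, narrowly for control replicate 2 and eKO replicate 1.

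The definitive Hbb-bs was the most abundant globin in every library, with 39.8% and 33.0% of globin UMIs in the controls and 33.8% and 30.5% in eKO. Its neighbour Hbb-bt made up 17.6% and 16.6% in the controls and 16.1% and 14.8% in eKO. Hba-a1 made up 16.9% and 17.8% in the controls and 18.6% and 15.8% in eKO, and Hba-a2 13.5% and 14.2% in the controls and 14.6% and 11.6% in eKO. eKO replicate 2 was lowest for all 4 definitive globins, and only for Hbb-bt did the groups not overlap. UMIs of 3′ reads are not scaled by length, and Hba-a1 and Hba-a2, like Hbb-bs and Hbb-bt, are near-identical in sequence, so their split is uncertain. Alpha-type UMIs per beta-type UMI came to 0.471 and 0.519 in the controls and 0.552 and 0.445 in eKO, with both extremes in eKO.

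**Figure D2:**
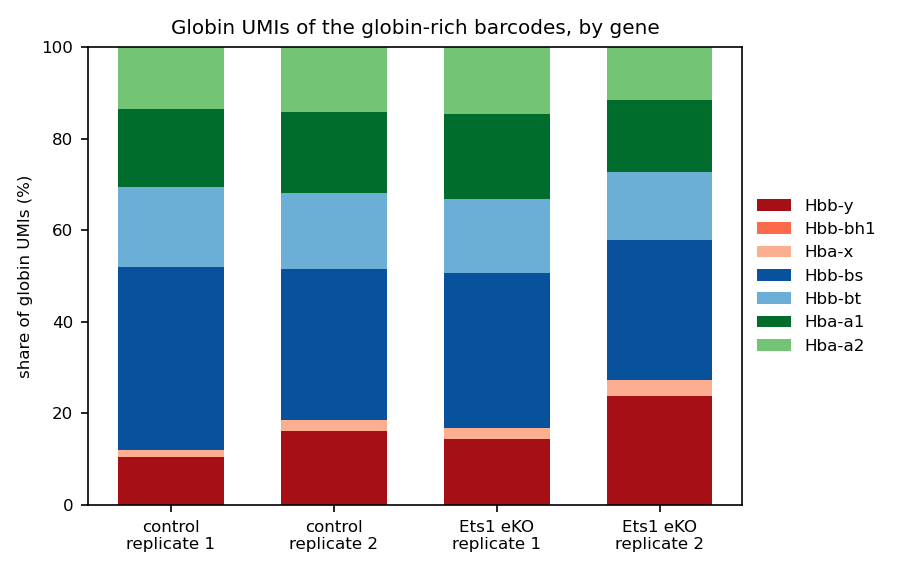
Share of each of the 7 globin genes in the globin UMIs of the globin-rich barcodes, 1 bar per library. Hbb-y takes 10.5% in control replicate 1 and 23.8% in eKO replicate 2, and Hbb-bs is the largest share in all 4 libraries.

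Every globin-rich barcode had a UMI of Hba-a1, Hba-a2 and Hbb-bt. Hbb-y was detected in 61.3% and 58.3% of globin-rich barcodes of the controls and in 60.7% and 79.6% of those of eKO. In the other barcodes it had a UMI in 22.2% and 13.8% in the controls and in 29.1% and 34.4% in eKO. Hbb-bh1 was detected in 27.1% and 37.0% of globin-rich barcodes of the controls and in 28.2% and 44.1% of those of eKO, against at most 0.259% of the other barcodes. Globin-rich barcodes held 98.9% and 99.1% of all globin UMIs within the limits in the controls and 98.9% and 97.9% in eKO.

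The rule used the sum of all 7 globins and not how it splits into embryonic and definitive genes, but the split comes from the same UMIs and changed with the globin share of a barcode, so it is given as a description. In control replicate 1 the embryonic share was 0.177% from 5% to 20% globin and 27.9% from 20% to 50%. Hbb-y and Hbb-bh1 together made up 15.6% and 24.7% of beta-type UMIs in the controls and 22.5% and 34.5% in eKO. Control replicate 1 was lowest, eKO replicate 2 was highest, and the groups overlapped. The means were 20.1% and 28.5%, a difference of 8.38 percentage points. The difference depends on single libraries: it was 2.36 points without eKO replicate 2, 14.4 without eKO replicate 1, 3.83 without control replicate 1 and 12.9 without control replicate 2. With at least 500 genes per barcode it was 3.95 points, from 21.8% and 35.6% in controls against 26.7% and 38.6% in eKO. At 80% globin and above, where cardiomyocyte markers were low in all 4 libraries, the shares were 14.2% and 23.8% in the controls and 23.1% and 34.4% in eKO, and the groups still overlapped. Globin UMIs outside the globin-rich barcodes had the same order of libraries, with an embryonic share of 20.9% and 31.8% in the controls and 30.2% and 43.7% in eKO.

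The median barcode gave a different picture from the sum. Median embryonic shares were 0.0375% and 0.0317% in the controls and 0.0416% and 16.5% in eKO, so the typical globin-rich barcode of 3 libraries held almost no embryonic beta-type globin and that of eKO replicate 2 held some. All 931 barcodes had at least 10 beta-type UMIs. Under 1% embryonic share were 133 of 225 and 62 of 108 barcodes in the controls and 119 of 206 and 162 of 392 in eKO.

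**Figure D3:**
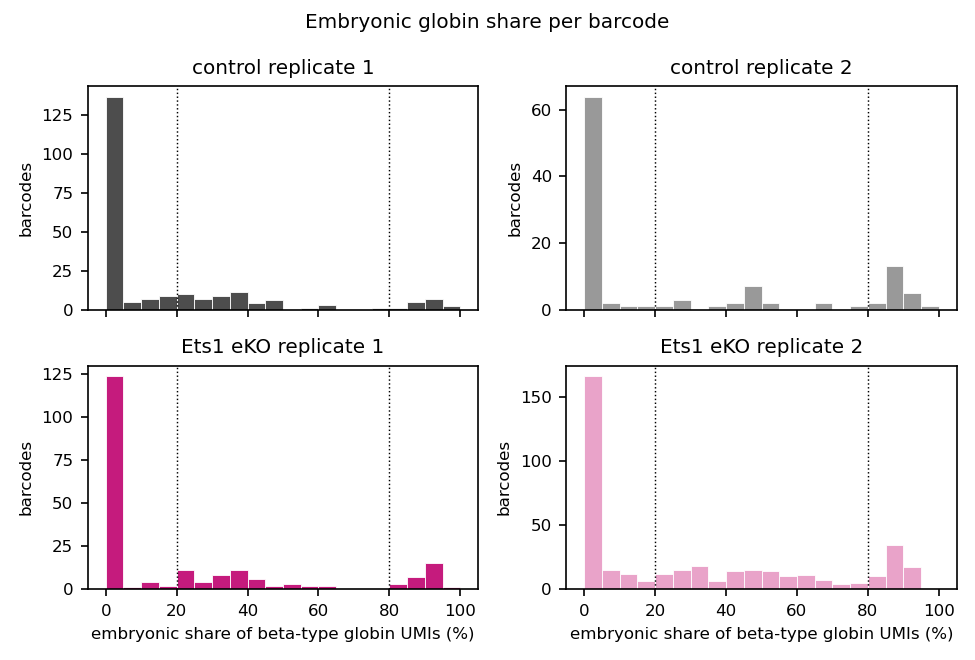
Globin-rich barcodes of each of the 4 libraries by their embryonic share of beta-type globin UMIs, in percent. Under 5% lie 137 and 64 barcodes of the controls and 124 and 166 of eKO, the latter a minority of the 392 of eKO replicate 2, and 5 barcodes in all lie above 95%.

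Barcodes were sorted into embryonic-rich (an embryonic share of at least 80%), definitive-rich (at most 20%) and those between. Embryonic-rich barcodes numbered 15 and 21 in the controls and 26 and 62 in eKO, or 6.67% and 19.4% of the globin-rich barcodes in the controls and 12.6% and 15.8% in eKO. Definitive-rich barcodes numbered 158 and 68 in the controls and 131 and 199 in eKO, or 70.2% and 63.0% in the controls and 63.6% and 50.8% in eKO. Definitive-rich barcodes were the majority in every library, and the groups overlapped in both shares. Within 5 points of the upper limit lay 2 and 3 barcodes of the controls and 3 and 15 of eKO, and within 5 points of the lower limit 19 and 2 of the controls and 13 and 18 of eKO.

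Barcodes between the limits numbered 52 and 19 in the controls and 49 and 131 in eKO, and were the deepest. Their median UMI totals were 14028.5 and 13974 in the controls and 14260 and 14328 in eKO. Embryonic-rich barcodes held medians of 4992 and 5387 in the controls and 5558.5 and 5992.5 in eKO, and definitive-rich ones 8055 and 6398.5 in the controls and 5412 and 7559 in eKO. In all 4 libraries the median of the barcodes between lay above the medians of both other kinds. Whether they hold 1 cell each with both kinds of globin or 2 cells was not tested.

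The alpha-type genes, which did not enter this sorting, followed it. Hba-x made up 25.6% and 19.7% of alpha-type UMIs in embryonic-rich barcodes of the controls and 24.6% and 25.6% in those of eKO. Barcodes between the limits held 10.4% and 12.8% in the controls and 11.1% and 14.5% in eKO, and definitive-rich ones 1.02% and 0.166% in the controls and 0.919% and 0.858% in eKO. These summed shares fell from embryonic-rich to definitive-rich barcodes in every library, and Hba-a1 and Hba-a2 still made up most alpha-type UMIs of embryonic-rich barcodes. Single barcodes overlap: in control replicate 1 the 5th percentile of the Hba-x share was 14.2% in embryonic-rich barcodes and the 95th percentile 20.9% in those between. Hba-x had a UMI in 100% and 100% of embryonic-rich barcodes of the controls and in 100% and 98.4% of those of eKO, against 23.4% and 16.2% of definitive-rich ones of the controls and 12.2% and 25.6% of definitive-rich ones of eKO.

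**Figure D4:**
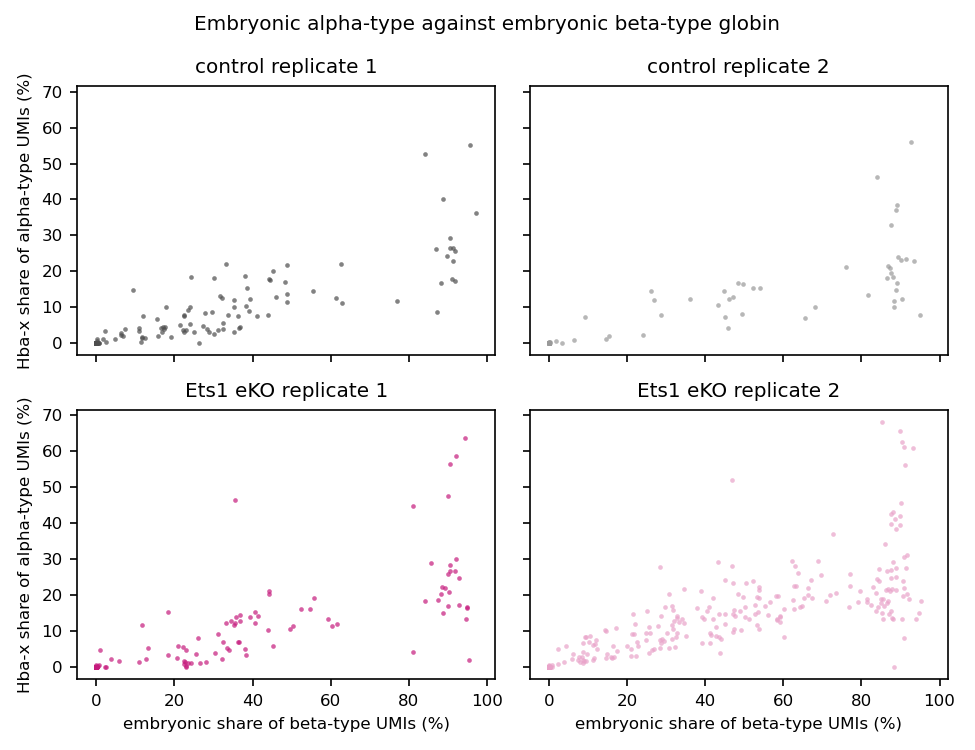
Each point is a globin-rich barcode (all but 1, which had under 10 alpha-type UMIs), with the embryonic share of its beta-type globin UMIs against the Hba-x share of its alpha-type UMIs, both in percent, 1 panel per library. Summed Hba-x shares were between 19.7% and 25.6% in embryonic-rich barcodes and at most 1.02% in definitive-rich ones.

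Embryonic-rich barcodes also divided their definitive globins differently. Hbb-bt made up 56.7% and 49.1% of definitive beta-type UMIs in embryonic-rich barcodes of the controls and 64.7% and 55.8% in those of eKO, and 30.4% and 33.0% in definitive-rich barcodes of the controls and 31.8% and 31.1% in those of eKO. It was higher in embryonic-rich barcodes in all 4 libraries. Hba-a2 made up 35.1% and 37.3% of the UMIs of Hba-a1 and Hba-a2 in embryonic-rich barcodes of the controls and 35.6% and 35.9% in those of eKO, and 45.8% and 46.6% in definitive-rich barcodes of the controls and 45.9% and 45.6% in those of eKO. It was lower in embryonic-rich barcodes in all 4 libraries. The uncertain split between near-identical genes applies to both ratios, and neither was tested.

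The remaining genes were compared between definitive-rich and embryonic-rich barcodes, to find what else differs between barcodes sorted only by beta-type globins. UMIs were summed per library and kind, the 7 globins were left out, and library was a block in the edgeR quasi-likelihood fit, with Benjamini-Hochberg adjusted p at 0.05 over all genes tested. Of 3970 genes tested, 98 (2.47%) passed, 43 higher (1.08%) and 55 lower (1.39%) in definitive-rich barcodes, while all genes had a median log2 fold change of 0.17. DESeq2 called 74 of 16696 genes. Single libraries carried many of the calls. Without control replicate 2, 19 of 4596 genes tested were called, and without eKO replicate 1, 36 of 3658. Without control replicate 1, 95 of 3428 were called, and without eKO replicate 2, 68 of 2419. Without the library block, 14 of 2810 were called. All main calls that could be tested in these fits had the same direction, but the fits reuse barcodes that gave the calls. DESeq2's scaling shifted the median log2 fold change of the genes tested by 0.12.

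Of 17 genes of late maturation and organelle clearance, 13 were tested, 4 were higher (Ube2o, Xpo7 and Mkrn1 among them), 0 were lower, and the list's median log2 fold change was 1.03. Mkrn1 (ENSMUSG00000029922), which encodes a ubiquitin ligase, stood at 71.0 and 358.5 CPM in embryonic-rich barcodes of the controls and at 278.3 and 187.6 in those of eKO, and at 3145 and 3339 in definitive-rich barcodes of the controls and 3180 and 756 in those of eKO. Its log2 change was 3.47 (standard error, SE, 0.39, adjusted p 2.77e-09, higher in 4 of 4 libraries). Definitive-rich barcodes of eKO replicate 2 were the lowest of the 4 libraries. Over the fits that left out a library, the adjusted p of Mkrn1 was at most 0.00300. Ube2o, a ubiquitin enzyme of red cell maturation, and Xpo7, an exportin of maturing red cells, had log2 fold changes of 1.93 and 2.15 and passed without eKO replicate 2 only, with adjusted p of up to 0.201 and 0.464 without another library.

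The red cell membrane did not move as a whole. Of 16 membrane and skeleton genes, 12 were tested, 1 was higher, 1 was lower (Kel) and the median log2 fold change was 0.03. Kel, a blood group glycoprotein, had a log2 fold change of -1.60 (adjusted p 0.0469) but was lower in 3 of 4 libraries only, and passed in 1 of 4 fits that left out a library, with an adjusted p of up to 0.605 without control replicate 2. Slc4a1 stood at 153.8 and 1389 in embryonic-rich barcodes of the controls and 278.3 and 210.5 in those of eKO, and at 290.7 and 642 in definitive-rich barcodes of the controls and 433.5 and 143 in those of eKO. It was higher in definitive-rich barcodes of 2 libraries and lower in those of 2, with a log2 fold change of -0.03 (adjusted p 0.989).

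Of 8 genes of haem synthesis, 7 were tested, 1 was higher (Urod, a porphyrin decarboxylase), 0 were lower and all 7 log2 fold changes were positive, with a median of 0.98. Urod had an adjusted p of 0.0493 and passed in 0 of 4 fits that left out a library, where it lay between 0.137 and 0.495. Alas2 stood at 236.6 and 1300 in embryonic-rich barcodes of the controls and 1454 and 503.4 in those of eKO, and at 1728 and 2241 in definitive-rich barcodes of the controls and 2171 and 456.3 in those of eKO. It was higher in definitive-rich barcodes in 3 libraries and not in eKO replicate 2, with a log2 fold change of 1.01 (adjusted p 0.150).

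Iron genes were split. Of 10, 6 were tested, 2 were higher (Slc25a37 and Glrx5), 2 were lower (Abcb10 and Fth1) and the median log2 fold change was -0.44. Slc25a37 (ENSMUSG00000034248), which carries iron into mitochondria, stood at 35.5 and 224.1 in embryonic-rich barcodes of the controls and 30.9 and 228.8 in those of eKO, and at 1381 and 1633 in definitive-rich barcodes of the controls and 1805 and 360.4 in those of eKO. Its log2 fold change was 3.104 (adjusted p 1.33e-05, higher in 4 of 4 libraries), and it did not pass without control replicate 2 (adjusted p 0.107). Fth1 (ENSMUSG00000024661), the heavy chain of ferritin, which stores iron, stood at 19570 and 54761 in embryonic-rich barcodes of the controls and 51740 and 28432 in those of eKO, and at 17278 and 15503 in definitive-rich barcodes of the controls and 15471 and 6278 in those of eKO. The log2 fold change was -1.42 (adjusted p 5.67e-05, lower in 4 of 4 libraries), and it did not pass without control replicate 2 (adjusted p 0.106). Glrx5, an iron-sulfur cluster protein, and Abcb10, a mitochondrial transporter, had log2 fold changes of 1.41 and -1.78, with adjusted p of up to 0.354 without eKO replicate 1 and 0.323 without control replicate 2. Abcb10 reached the filter through embryonic-rich barcodes, where it was higher.

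Redox genes and red cell enzymes gave 2 higher (Gpx1 and Bpgm), 0 lower and a median log2 fold change of 0.64 among 7 tested of 9 measured. Gpx1 (ENSMUSG00000063856), glutathione peroxidase, stood at 579.8 and 2330 in embryonic-rich barcodes of the controls and 1051 and 1359 in those of eKO, and at 4792 and 6062 in definitive-rich barcodes of the controls and 7149 and 1982 in those of eKO. It was higher in definitive-rich barcodes in 4 of 4 libraries, with a log2 fold change of 1.98 (SE 0.32, adjusted p 2.03e-05, at most 0.0413 without any library). Bpgm, the enzyme that makes the phosphate which loosens oxygen from hemoglobin, had a log2 fold change of 1.26 and an adjusted p of 0.04995, up to 0.603 without eKO replicate 1.

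Among 10 erythroid transcription factors, 5 were tested, 1 was higher (Lmo2), 1 was lower (Tal1) and the median log2 fold change was -0.75. Tal1 (ENSMUSG00000028717), a factor needed for the start of blood formation, stood at 118.3 and 1344 in embryonic-rich barcodes of the controls and 309.3 and 164.7 in those of eKO, and at 46.8 and 73.6 in definitive-rich barcodes of the controls and 46.2 and 9.77 in those of eKO. It was lower in definitive-rich barcodes in 4 of 4 libraries, with a log2 fold change of -3.04 (SE 0.46, adjusted p 7.01e-06, at most 0.0321 without any library). Tal1 had 86 UMIs in embryonic-rich and 58 in definitive-rich barcodes. It reached the filter mainly through embryonic-rich ones, so its levels are given as a description. Lmo2, a partner of Tal1, had 6 UMIs in embryonic-rich and 182 in definitive-rich barcodes, was at 0 in embryonic-rich barcodes of control replicate 2 and eKO replicate 1 and reached the filter through definitive-rich ones, so nothing is read from its call. Globin switching regulators gave 0 calls among 6 tested of 9, with 3 positive and a median log2 fold change of -0.08, and the most abundant of them in the globin-rich barcodes of all 4 libraries, Sox6, which represses embryonic globin, had a log2 fold change of 0.54 (adjusted p 0.743). In the same fit 98 of all 3970 genes (2.47%) passed, and a list of 6 is too short to set a 0 apart from that share.

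Outside the lists, several genes were much lower in definitive-rich barcodes. Pdzk1ip1 (ENSMUSG00000028716), a neighbour of Tal1 on chromosome 4, stood at 224.8 and 1120 in embryonic-rich barcodes of the controls and 1175 and 347.8 in those of eKO, and at 28.5 and 40.1 in definitive-rich barcodes of the controls and 35.5 and 8.88 in those of eKO. Its log2 change was -4.45 (SE 0.45, adjusted p 3.21e-10, lower in 4 of 4 libraries). Hsd3b6 (ENSMUSG00000027869), a steroid dehydrogenase, stood at 106.5 and 851 in embryonic-rich barcodes of the controls and 835 and 251.7 in those of eKO, and at 26.4 and 13.4 in definitive-rich barcodes of the controls and 39.1 and 7.102 in those of eKO. The log2 change was -4.19 (SE 0.49, adjusted p 9.22e-09, lower in 4 of 4 libraries). Both were lower in definitive-rich barcodes of every library, without overlap between the library values of the 2 kinds. Fam174b, Arid3a, which encodes a DNA-binding protein, and Hmox1, the enzyme that breaks down haem, had log2 fold changes of -3.78, -3.56 and -3.08 and were lower in 4 of 4 libraries. In embryonic-rich and definitive-rich barcodes Pdzk1ip1 had 158 and 40 UMIs and Hsd3b6 110 and 34. Fam174b had 68 and 27, Arid3a 43 and 21 and Hmox1 73 and 42. All 5 genes reached the filter through embryonic-rich barcodes, where they were high. They passed in every fit that left out a library, with an adjusted p of at most 0.0237, but nothing is read from that. Higher, but not in every such fit, was Ube2c (log2 fold change 2.82, adjusted p up to 0.0707 without control replicate 2). Mpp1 (10 and 392 UMIs in embryonic-rich and definitive-rich barcodes), Txnrd2 (9 and 262) and Specc1 (18 and 381) were also called, but were at 0 in embryonic-rich barcodes of control replicate 2 and eKO replicate 1 and reached the filter through definitive-rich ones, so nothing is read from their calls.

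Lower with fewer passes or too few counts in some fits were Slc39a8, P2rx7, Acp5 and Gm26885. Their log2 fold changes were -3.84, -3.72, -3.36 and -3.26. Without control replicate 2 the adjusted p was 0.0524 for Slc39a8, 0.130 for Acp5 and 0.163 for Gm26885. P2rx7 rests on 22 and 8 UMIs in embryonic-rich and definitive-rich barcodes, Slc39a8 on 35 and 13, Acp5 on 25 and 15 and Gm26885 on 21 and 13. These genes too reached the filter through embryonic-rich barcodes, and nothing is read from their calls. Gm33336 was also called, on 15 and 2 UMIs. It was at 0 in definitive-rich barcodes of both controls and eKO replicate 2 and reached the filter through embryonic-rich ones. Nothing is read from its call. Of 30 called genes examined one by one, 27 could be tested with each library left out, and 11 of these passed every time. Pdzk1ip1, Hsd3b6, Fam174b, Arid3a and Hmox1, which reached the filter through embryonic-rich barcodes, are among the 11.

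Markers of other cells were present in both kinds of barcodes. The 10 cardiomyocyte markers were all detected in every library and summed to 11560 and 4885 in embryonic-rich barcodes of the controls and 19112 and 31027 in those of eKO, and to 15369 and 12914 in definitive-rich barcodes of the controls and 21060 and 31594 in those of eKO. Definitive-rich barcodes were higher in all 4 libraries. All 10 were tested, 0 passed in edgeR, and 9 were higher with a median log2 fold change of 0.57. Of all 3970 genes in that fit, 98 (2.47%) passed. The lists of 8 endothelial and 8 fibroblast markers gave 0 calls among 8 and 6 tested, with medians of 0.40 and 1.13, and no epicardial, leukocyte or platelet marker was tested.

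The same comparison among barcodes of at least 80% globin, a limit chosen after seeing the data, holds less of this other RNA. Embryonic-rich barcodes numbered 6 and 10 in the controls and 17 and 22 in eKO, and definitive-rich ones 120 and 49 in the controls and 98 and 91 in eKO. Of 487 genes tested, 314 (64.5%) passed, 186 higher and 128 lower, with a median log2 fold change of 0.42. Of the 98 genes called among all globin-rich barcodes, 75 could be tested here. All 75 had the same direction and 73 passed. These barcodes are part of the set that gave the 98 calls, so this is not an independent check. Cardiomyocyte markers still summed to 3800 and 2591 in embryonic-rich barcodes of the controls and 3617 and 3451 in those of eKO, and to 7441 and 4346 in definitive-rich barcodes of the controls and 6354 and 8623 in those of eKO, and 4 of 8 tested were higher. The only endothelial marker tested, Pecam1, was lower (log2 fold change -2.39), though at 0 in embryonic-rich barcodes of control replicate 1. In embryonic-rich barcodes 6 of 10 were detected in each control, with Tnnc1, Nexn and Myh6 at 0 in both, and 10 of 10 in each eKO library. Their part in the result was not tested.

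At 80% globin and above, Alas2 stood at 2138 and 1727 in embryonic-rich barcodes of the controls and 2682 and 2689 in those of eKO, and at 6264 and 8484 in definitive-rich barcodes of the controls and 6653 and 6073 in those of eKO. It was higher in definitive-rich barcodes of all 4 libraries, with a log2 fold change of 1.53 (adjusted p 6.95e-06, against 0.150 among all globin-rich barcodes). Gpx1 stood at 950.1 and 1823 in embryonic-rich barcodes of the controls and 998 and 2868 in those of eKO, and at 17129 and 19975 in definitive-rich barcodes of the controls and 21626 and 24039 in those of eKO. Tal1 stood at 712.6 and 2111 in embryonic-rich barcodes of the controls and 561 and 627 in those of eKO, and at 79.6 and 119 in definitive-rich barcodes of the controls and 104 and 19.5 in those of eKO. The summed level of Gpx1 was higher in definitive-rich barcodes of all 4 libraries, and that of Tal1, on 48 and 22 UMIs in all, lower. Fth1 stood at 136817 and 80127 in embryonic-rich barcodes of the controls and 95672 and 154298 in those of eKO, and at 59482 and 51113 in definitive-rich barcodes of the controls and 44801 and 55105 in those of eKO. It was lower in definitive-rich barcodes of all 4 libraries.

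Of all genes tested at 80% globin and above, 64.5% passed and 186 of 487 were higher, so short lists with most genes called are to be read against that. By role, 4 of 4 tested genes of haem synthesis were higher (Alas2, Urod and Fech among them, median 1.84), and 5 of 6 redox genes and red cell enzymes were higher (Prdx2, Gpx1, Blvrb, Bpgm and Car2, median 1.56). Of 12 late maturation genes tested, 10 were higher and 2 lower (Mxi1 and Pim1, both regulators of cell growth), with a median of 2.32. Membrane genes gave 4 higher (Slc4a1, Rhd and Epb41 among them) and 1 lower (Kel) of 5, and iron genes 2 higher and 2 lower (Fth1 and Ftl1, both ferritin chains) of 4. The log2 fold change of Slc4a1 was 0.99 (adjusted p 0.0127) at 80% globin and above, against -0.03 (adjusted p 0.989) among all globin-rich barcodes. In control replicate 2 it was lower in definitive-rich barcodes at the higher limit too, with 1535 CPM in embryonic-rich and 1310 in definitive-rich ones. Of 20 cell cycle genes only the proliferation marker Mki67 reached the filter, through definitive-rich barcodes alone (1 UMI in embryonic-rich and 110 in definitive-rich ones), so nothing is read from its call. Among all globin-rich barcodes 0 of 16 tested cell cycle genes passed in edgeR, with a median of 0.55. Of the progenitor genes Kit, Gata2, Cd34, Spi1 and Flt3, none had a UMI in embryonic-rich barcodes of at least 80% globin, and the list summed to at most 26.0 in definitive-rich ones.

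**Figure D5:**
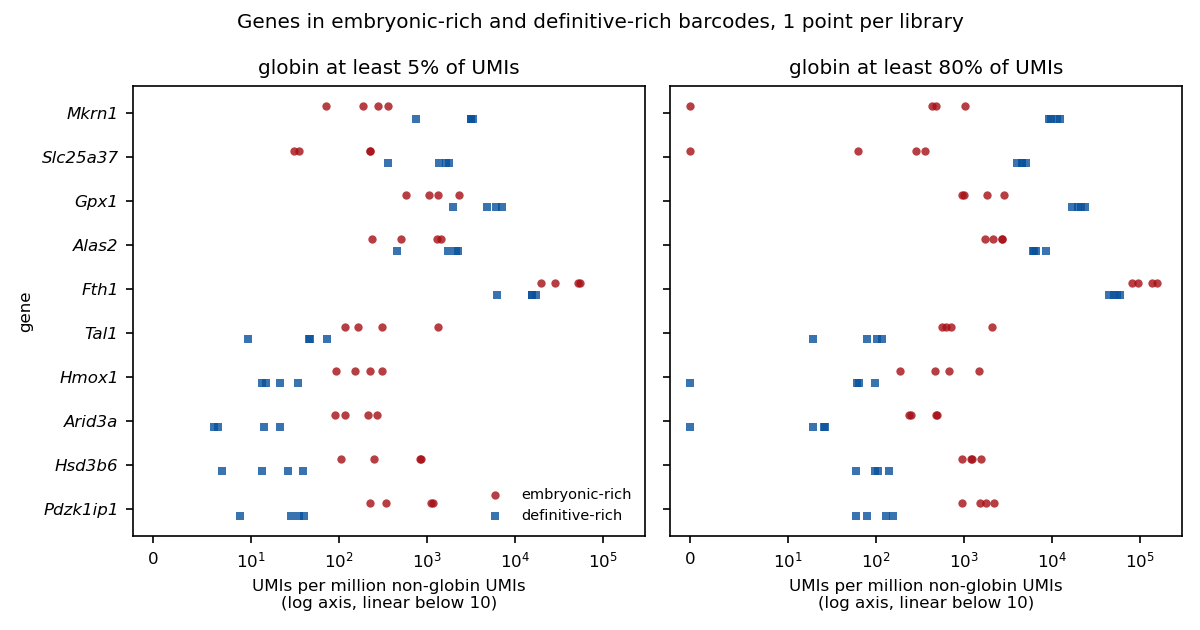
Levels of 10 named genes, CPM of non-globin UMIs on a log scale, in embryonic-rich and definitive-rich barcodes, 1 point per library, for all globin-rich barcodes (left) and those of at least 80% globin (right). The genes were picked after their values were seen; on the right Gpx1 lies between 950.1 and 2868 in embryonic-rich and between 17129 and 24039 in definitive-rich barcodes.

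eKO was compared with control over all globin-rich barcodes, to see whether erythroid transcripts differ between the genotypes. Of 7841 genes tested with edgeR's quasi-likelihood test, 0 passed (0%), 555 had an unadjusted p below 0.05 (291 higher and 264 lower), and the lowest adjusted p was 0.0980, for Sfrp2, which was chosen after its values were seen. DESeq2 called 1 gene, Kcne3, also named after its values were seen, at 34.9 and 131.3 CPM in the controls and 3.99 and 1.13 in eKO (log2 fold change -5.34, adjusted p 0.00348). Leaving out a library changed the count, to 28 without control replicate 1, 21 without control replicate 2, 397 without eKO replicate 1 and 0 without eKO replicate 2. Each fit with a library left out has 1 library in a group, so the spread comes from the other group alone. These fits tested 8762, 9754, 9824 and 7342 genes, in the same order. Without a filter on low counts, and with all 4 libraries, 21 of 17806 passed. With replicate number as a block, pairing the libraries crosswise gave 93 and pairing them by number 0; the crosswise pairing was chosen after seeing the data, and the labels do not pair the libraries.

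Ets1 (ENSMUSG00000032035, chromosome 9 from 32636221 to 32757820) itself stood at 116.7 and 126.8 CPM in globin-rich barcodes of the controls (87 and 28 UMIs) and 35.9 and 17.4 in those of eKO (18 and 46 UMIs). Both eKO libraries were below both controls, with a log2 fold change of -2.22 (SE 0.46, adjusted p 0.503). Where 1 group had a single library, so that the spread came from the other, it passed without control replicate 1 (adjusted p 0.0227) and without eKO replicate 1 (2.18e-04), but not without control replicate 2 (0.0922) or eKO replicate 2 (0.9999). With all 4 libraries it passed without a filter on low counts (0.0132) and in the crosswise pairing (7.4e-05), but not with at least 20% globin (0.931) or in DESeq2 (0.999). The 8 endothelial markers moved with it: all 8 were detected in every library and they summed to 1348 and 1046 in the controls and 714 and 633 in eKO, with Pecam1 most abundant in control replicate 1 and Ctla2a in the other 3 libraries. At 80% globin and above the list summed to 220 and 202.3 in the controls and 196.4 and 302.7 in eKO, and Ets1 had 5 and 1 UMIs in the controls and 0 and 4 in eKO, too few UMIs to compare. Their part in the result was not tested. Which exons carry the loxP sites is not given in the paper, and 3′ reads may lie outside them.

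Erythroid genes were mostly lower in eKO, and this followed eKO replicate 2. Alas2 stood at 1606 and 2414 in globin-rich barcodes of the controls and 1985 and 459.9 in those of eKO, and at 5385 and 5976 in barcodes of at least 80% globin of the controls and 5315 and 3836 in those of eKO. Slc4a1 stood at 281.7 and 742.7 in the controls and 434.9 and 161.1 in eKO, and at 80% globin and above at 836.1 and 1187 in the controls and 1009 and 1200 in eKO. For both genes eKO replicate 2 was the lowest over all globin-rich barcodes, and for Slc4a1 it was the highest at the higher globin limit. Without eKO replicate 2 the log2 fold change of Alas2 went from -0.65 to 0.05, and that of Slc4a1 from -0.72 to -0.16. The list medians that follow are not given without this library. Of 15 membrane genes tested, 0 passed and 15 were lower, with a median log2 fold change of -0.61, and of 16 late maturation genes 0 passed and 16 were lower, with a median of -0.43. At 80% globin and above, 5 of 14 membrane genes were higher with a median of -0.03, and 6 of 14 late maturation genes with a median of -0.05. Of the 10 cardiomyocyte markers, all detected, 0 passed in edgeR, and their median was 1.15, or 0.00524 at 80% globin and above. They summed to 16261 and 9695 in the controls and 16644 and 33059 in eKO, so only eKO replicate 2 was clearly above control replicate 1. Their part in these differences was not tested.

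Haem synthesis genes gave 0 calls among 8 tested, with 8 lower and a median log2 fold change of -0.40. At 80% globin and above 3 of 7 were higher, with a median of -0.02. Iron genes gave 0 calls among 8 (median -0.41), redox genes and red cell enzymes 0 among 7 (-0.32), erythroid transcription factors 0 among 9 (-0.75), switching regulators 0 among 6 (-0.12), and cell cycle genes 0 among 20 (0.35), against a median of 0.01 over all 7841 genes. Since the rule used the globins, their fold changes as CPM are descriptive: the 3 embryonic globins had a median of -0.24 and the 4 definitive ones -0.64, and at 80% globin and above 0.41 and -0.35. The embryonic globins changed sign with this limit and without control replicate 2 or eKO replicate 2, where Hbb-y changed by 0.24 and 0.11 against -0.32 in the fit of all libraries.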

How the data were processed

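The deposited files hold raw UMI counts per gene and barcode, which the authors obtained with Cell Ranger 7.1.0 on mm10 and analysed in Seurat 4.3.0, according to the submitters' processing notes. No barcode was removed here beyond the limits on genes, mitochondrial UMIs and globin. Counts were summed per library, levels are CPM of non-globin UMIs, and genes were tested with edgeR 4.0.16 (TMM, quasi-likelihood, Benjamini-Hochberg) and DESeq2 1.42.0 in R 4.3.3. Tables were made in Python 3.11.15 with numpy 2.4.6, scipy 1.17.1, pandas 2.3.3 and matplotlib 3.10.9. The fit was tested on simulated data. Barcodes and gene lists were chosen with earlier results of these data known. Named genes are the 10 largest changes each way among calls with a mean of at least 50 CPM, called list genes, and the 3 most abundant of each list. Alternatives were other globin, gene and sorting limits, other scaling, no count filter, blocks, and each library left out. Gene positions come from GENCODE vM21 and promoters from RefSeq. The promoter of Hbb-bh1 was not analysed here. Some called genes are not reported.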

Additional observations from a re-analysis of the deposited data

Results flagged for a closer look

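Barcodes outside the limits on genes and mitochondrial UMIs were not analysed, yet many were rich in globin. In Ets1 eKO replicate 1 13.8% of the barcodes outside the limits (65 of 470) gave at least 5% of their UMIs to globins, and in Ets1 eKO replicate 2 17.3% did (113 of 655). The controls had 5.88% (59 of 1003) and 9.51% (52 of 547). Both were noted because they are data left out of the analysis. Of 289 such barcodes, 279 had under 200 genes and 16 were over the mitochondrial limit.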

How the results depend on the processing

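With 2 libraries per group the smallest two-sided exact permutation p is 0.333. Each library pools 3 embryos, sex is unknown, and replicate and embryo cannot be separated. The batch label is the same for all libraries. Barcodes of low globin share, most of them in Ets1 eKO replicate 2, carry RNA of other cells, and the cause was not tested. The limits of 50% and 80% globin and the crossed replicate block were chosen after seeing the data.

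The difference in the share of globin-rich barcodes was 0.754 points, with 0.841 at 2% globin, 0.530 at 20%, 0.662 with 500 genes, 0.291 at 50% and 0.146 at 80%, and 0.463 to 1.05 with a library left out. The difference in embryonic share of beta-type UMIs was 8.38 points, with 8.45 at 2% globin, 8.50 at 20%, 3.95 with 500 genes, 8.26 for medians over barcodes, 9.19 at 50% and 9.78 at 80%, and 2.36 to 14.4 with a library left out.

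Ets1 eKO against control had 0 calls in the edgeR fit, and 1 in DESeq2, 21 without a filter on low counts and 0 to 397 with a library left out. The replicate block gave 0 calls and the crossed replicate block 93. Definitive-rich against embryonic-rich barcodes had 98 calls of 3970 genes tested, and 14 of 2810 without the library block. With a library left out, calls ranged from 19 of 4596 to 95 of 3428. There were 369 calls of 818 genes tested at 50% globin and 314 of 487 at 80%. For 30 called genes examined one by one, all 333 alternative values had the same direction and 259 passed the threshold. The genes were examined because they were called, and the alternatives reuse the same barcodes, so this is not an independent check.

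Some log2 fold changes of genes that were not called changed sign between definitive-rich and embryonic-rich barcodes. Slc4a1 went from -0.03 to 0.0563 in DESeq2, 0.25 without a filter, 0.26 without control replicate 2, 0.07 without Ets1 eKO replicate 2, 0.50 at 20% globin, 0.47 at 50% and 0.99 at 80%, and lay between -0.42 and 0.26 with a library left out. With a library left out Epb41 lay between -0.14 (without control replicate 1) and 0.60, Igf2bp3 between -0.0795 (without Ets1 eKO replicate 1) and 1.45, Mki67 between -0.12 (without Ets1 eKO replicate 1) and 0.53, and Blvrb between -0.26 (without control replicate 1) and 0.39. Blvrb was -0.0200 without the library block.

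In Ets1 eKO against control, globins changed sign from negative. Without Ets1 eKO replicate 2 Hba-a1 was 0.14, Hba-a2 0.11, Hba-x 0.32, Hbb-y 0.11 and Hbb-bh1 0.16, and without control replicate 2 Hba-x was 0.36, Hbb-y 0.24 and Hbb-bh1 0.35. The lowest values with a library left out, all without Ets1 eKO replicate 1, were -1.93 for Hba-a1, -2.06 for Hba-a2, -0.97 for Hba-x, -0.999 for Hbb-y and -0.82 for Hbb-bh1. At 50% globin Hba-x was 0.10 and Hbb-bh1 0.0826, and at 80% Hba-x was 0.43, Hbb-y 0.36 and Hbb-bh1 0.41. For 25 other named genes, 29 of 297 values changed sign, in 18 genes, none of them past the threshold, and 13 values passed it, all without Ets1 eKO replicate 1.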
